A study of Rattus norvegicus with 8 samples.

Results

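The genes described here serve the assembly of very low density lipoprotein (VLDL) in the liver and the remodelling of lipoproteins after secretion: Mttp, Lipc, Lcat, Pltp, Cideb, Lrp1, Lipa, Ces1d and Ces1dl1. They were chosen by name, from earlier results on these data. A probe counted as a member when the accession in the array annotation maps to 1 of these symbols, and each probe was kept as a separate feature. Of the 9 genes, 7 had a probe and gave 8 probes, of 41012 distinct probes for 13458 named genes in the series, and Mttp alone had more than 1 probe. All 8 probes passed the filter on dim signals, which 26981 of the 41012 probes passed. Cideb, a lipid droplet protein that enlarges VLDL particles, and Lrp1, a receptor that clears remnant particles, had no matched probe and were not analysed here.

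Liver RNA came from male Zucker diabetic fatty rats aged 12 weeks, either obese (fa/fa) or lean (fa/+), and 4 arrays were hybridised for each genotype. The fa allele disables the leptin receptor, and the lean rats carry it on 1 chromosome. Each array paired liver RNA after testosterone undecanoate (TU), a long-acting testosterone ester (20 mg/kg subcutaneously, for 4 weeks), with liver RNA after vehicle. TU RNA carried the red dye Cy5 and vehicle RNA the green dye Cy3 on every array, so a TU effect and a dye effect of a probe cannot be told apart within a genotype. The obese minus lean difference in TU response has the same dyes on both sides. All 4 obese arrays lay on 1 slide and all 4 lean arrays on another, scanned separately, so slide and genotype cannot be told apart. The labels call the arrays biological replicates and do not say how many animals gave each RNA, so p-values measure the spread between these arrays.

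VLDL is built in the endoplasmic reticulum of hepatocytes, where microsomal triglyceride transfer protein, encoded by Mttp, loads lipid onto apolipoprotein B as it is made. Part of that lipid comes from stored triglyceride that is hydrolysed and re-esterified, a step in which carboxylesterases of the endoplasmic reticulum take part. In plasma the particles are remodelled by hepatic lipase, lecithin-cholesterol acyltransferase and phospholipid transfer protein, and lipid that returns to the cell is hydrolysed in lysosomes.

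Between obese and lean livers, the carboxylesterase probes Ces1d and Ces1dl1 were lower by more than any other member that passed the test, and Lcat was higher under vehicle. A difference was called when limma's p-value, adjusted by Benjamini-Hochberg over all tested probes, lay under 0.05. Under TU 2 of 8 member probes were called, both lower, where 20.7% of all tested probes were called, 12.1% higher and 8.55% lower. Under vehicle 3 of 8 were called, 1 higher and 2 lower, where 15.3% of all tested probes were called, 8.19% higher and 7.08% lower. No member probe was called for the TU response in obese rats, in lean rats or in the difference between them, where 0.0111% (all higher), 0.178% (0.111% higher and 0.0669% lower) and 0.00372% (all lower) of all tested probes were called. At an unadjusted limma p under 0.05 there were 3 of 8 member probes in obese rats, 2 in lean rats and 1 in the difference, where 12.7%, 15.0% and 7.62% of all tested probes lay under it.

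Ces1d encodes a carboxylesterase whose mouse counterpart hydrolyses stored triglyceride for VLDL secretion, and Ces1dl1 is annotated as a Ces1d-like gene. Each had 1 probe, and the probes' own sequences were not used here. The upstream regions of the 2 genes are shown because these genes differed most between genotypes and because their upstream sequences are close copies. RefSeq (build GRCr8) places the 250 bases before the annotated start at chr19:30046244-30046493 for Ces1d and at chr19:38444174-38444423 for Ces1dl1, both on the plus strand. Capitals mark bases with no identical partner in the alignment of the 2 regions.
Ces1d: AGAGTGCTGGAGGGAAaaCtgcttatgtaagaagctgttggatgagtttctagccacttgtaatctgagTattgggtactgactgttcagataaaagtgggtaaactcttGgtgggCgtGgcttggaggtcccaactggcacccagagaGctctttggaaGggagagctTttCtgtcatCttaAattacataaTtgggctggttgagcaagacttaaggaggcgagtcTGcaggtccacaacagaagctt
Ces1dl1: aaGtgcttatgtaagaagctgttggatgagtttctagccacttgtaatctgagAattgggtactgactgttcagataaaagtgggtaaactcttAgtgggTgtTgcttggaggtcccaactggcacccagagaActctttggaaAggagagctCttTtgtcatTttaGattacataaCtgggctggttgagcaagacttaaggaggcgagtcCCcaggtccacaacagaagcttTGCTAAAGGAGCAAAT
Of 234 aligned base pairs 220 were identical (94.0%), with 14 differences and no gap inside the alignment, and the annotated starts are offset by 16 bases. This compares upstream bases only: no transcript or probe sequence was compared, and hybridisation of either probe to RNA of the other gene was not tested.

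In the same window, letters of 4 motifs were searched on both strands of the 8 member promoters in the RefSeq table, which has none for Mttp. Neither Ces1d nor Ces1dl1 held TGTTCT (steroid receptor half-site), AGGTCA (nuclear receptor half-site), GTTAAT (HNF1 half-site) or TATAAA (core promoter element). Lipc held AGGTCA and GTTAAT, and no other member promoter held any of the 4. Of all 33469 promoters in the table, 17.5% held TGTTCT, 14.1% AGGTCA, 6.5% GTTAAT and 12.9% TATAAA.

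Normalized log2 intensities of Ces1d under TU were 13.05, 12.48, 13.14 and 13.00 on obese arrays 1 to 4, against 15.47, 15.29, 15.33 and 15.36 on lean arrays 1 to 4. Under vehicle they were 12.84, 11.84, 12.49 and 12.81 on obese arrays, against 15.25, 15.02, 14.94 and 15.05 on lean arrays. Every obese array lay below every lean array in each treatment. Ces1d fell in obese livers under TU by 5.45-fold (95% interval 4.36 to 6.81), with a log2 difference of -2.45 ± 0.14 (SE, n = 4 each) and an adjusted p of 0.00011 by limma. Under vehicle it fell by 5.94-fold (4.19 to 8.43), with a log2 difference of -2.57 ± 0.22 and an adjusted p of 0.000752 by limma. Over the settings tried and with each array left out in turn, the call held in both treatments.

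Ces1dl1 levels under TU were 7.12, 6.81, 6.75 and 6.68 on obese arrays, against 9.51, 9.81, 9.12 and 9.17 on lean arrays. Under vehicle they were 7.04, 6.67, 6.74 and 6.61 on obese arrays, against 9.63, 9.41, 9.34 and 9.50 on lean arrays. The genotypes did not overlap, and on obese arrays the spot was well above background on 2 of 4 arrays in Cy5 and 1 of 4 in Cy3, against all 4 lean arrays in each dye. The raw Cy3 signals were 27 to 52 on obese arrays, against 637.5 to 766 on lean arrays. Ces1dl1 fell in obese livers by 5.91-fold under TU (95% interval 4.52 to 7.73; limma adjusted p 0.000187) and by 6.52-fold under vehicle (5.47 to 7.77; limma adjusted p 4.37e-05). The call held under each setting, while the size depended on the background step: the log2 difference of -2.56 under TU and -2.71 under vehicle became -3.66 and -3.81 with no background correction and -5.44 and -5.71 with the scanner's processed signals. The offset added before the log draws values near background together, so 5.91-fold and 6.52-fold describe this scale only.

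**Figure D1:**
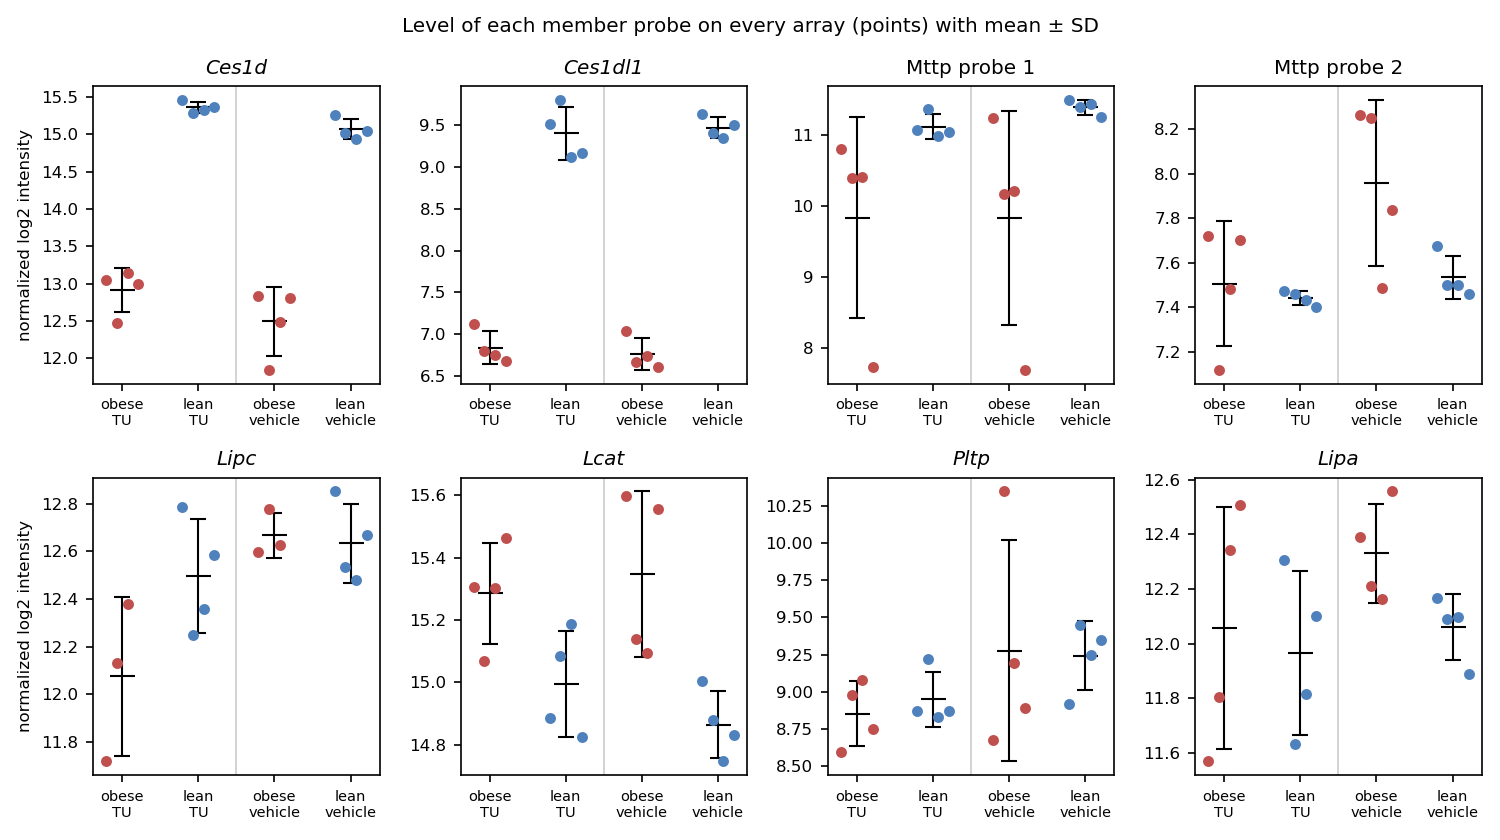
Normalized log2 intensity (vertical axes, each with its own range) of the 8 member probes on each array, obese left of lean, TU (Cy5) left of vehicle (Cy3); points are arrays and bars the mean ± SD. Ces1d and Ces1dl1 of obese rats lie below all lean arrays, and Mttp probe 1 has 1 obese array at 7.73 under TU and 7.69 under vehicle.

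The TU over vehicle log2 ratio of Ces1d was 0.21, 0.64, 0.65 and 0.19 on obese arrays and 0.21, 0.27, 0.39 and 0.31 on lean arrays. It was above 0 on all 8 arrays, and the genotypes overlapped. The mean ratio was 0.42 ± 0.09 (SE) in obese rats, with a limma adjusted p of 0.226, and 0.30 ± 0.09 in lean rats, with a limma adjusted p of 0.171, so neither was called. When ratios were median-centred and not loess-normalized, the lean mean became -0.16. The obese minus lean difference was 0.13, with a 95% interval of -0.15 to 0.40. Over the settings tried, the obese mean ran from 0.42 to 1.56 (lowest limma adjusted p 0.0898) and the difference from 0.13 to 1.25 (lowest limma adjusted p 0.125), the highest with ratios scaled between arrays, and neither was called. For Ces1dl1 the ratio was 0.01 to 0.14 on obese arrays and -0.33 to 0.40 on lean arrays, with a difference of 0.14 (95% interval -0.19 to 0.48).

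Mttp carries out the transfer step itself, and its 2 probes gave opposite signs between genotypes under vehicle, while probe 2 lay near 0 under TU. Probe 1 levels under TU were 10.81, 10.40, 10.41 and 7.73 on obese arrays, against 11.07, 11.38, 11.00 and 11.06 on lean arrays. Under vehicle they were 11.25, 10.17, 10.21 and 7.69 on obese arrays, against 11.51, 11.40, 11.45 and 11.25 on lean arrays. All obese arrays lay below all lean arrays, by a margin under 0.01 at the closest pair under vehicle, and obese replicate 4 lay far below the other obese arrays in both dyes. With all 4 obese arrays the log2 difference was -1.29 ± 0.62 under TU (limma adjusted p 0.185) and -1.57 ± 0.67 under vehicle (limma adjusted p 0.156). Without obese replicate 4 it was -0.59 under TU, which was called (limma adjusted p 0.0299), and -0.86 under vehicle, which was not (limma adjusted p 0.0875).

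Probe 2 of Mttp had levels of 7.72, 7.12, 7.48 and 7.70 under TU on obese arrays, against 7.47, 7.46, 7.43 and 7.40 on lean arrays. Under vehicle they were 8.27, 8.25, 7.49 and 7.84 on obese arrays, against 7.68, 7.50, 7.50 and 7.46 on lean arrays. Obese and lean arrays overlapped in each treatment. The spot was dim, though well above background on all 8 arrays. Its raw Cy5 signals were 119 to 136 on obese and 88 to 116 on lean arrays, and its raw Cy3 signals 109 to 202.5 and 103 to 125. Probe 1 on lean arrays had 1583 to 2707.5 in Cy5 and 2631 to 3306 in Cy3. The log2 difference was 0.06 ± 0.13 under TU (limma adjusted p 0.767) and 0.43 ± 0.17 under vehicle (limma adjusted p 0.142). Without obese replicate 3 the difference under vehicle was 0.58 and was called (limma adjusted p 0.0255). Under vehicle probe 1 was thus lower and probe 2 higher in obese livers, and a direction for Mttp is not given by these probes.

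On obese replicate 4 the raw signal of Mttp probe 1 was 139 in Cy5 and 103 in Cy3, against 1335 to 1904.5 and 978 to 1714 on the other obese arrays. The Lipc spot on the same array had 311 in Cy5 and 258.5 in Cy3, against 2551 to 7126 and 4225 to 6615 on the other obese arrays, and the scanner had marked it as non-uniform. Neighbours counted here had a median Cy3 signal over 200 on the other obese arrays. The median neighbour of the Mttp spot differed from the other obese arrays by -1.98 log2 units in Cy5 and -1.80 in Cy3. Of its 15 neighbours, 3 were more than 8-fold below the median of those arrays in both dyes. The median neighbour of the Lipc spot differed by -0.57 in Cy5 and -0.62 in Cy3, and 6 of its 23 neighbours were lower by the same measure. A stricter measure was used over the whole array, for spots with a Cy3 signal over 500 on each other obese array. Of 5192 such spots, 54 were more than 8-fold below the lowest of those arrays in both dyes. Of the 54, 43 lay in columns 58 to 85, a range chosen after the values were seen, which held 1768 of the 5192. Obese replicate 1 had 189 of 5429 such spots, 3 of them in those columns. Neighbours of the Ces1dl1 spot on obese replicate 4 differed by -1.35 in Cy5 and -1.02 in Cy3, and those of the Pltp spot on obese replicate 1 by -1.37 and -0.95. What part dim areas of an array have in the member results was not tested beyond leaving out each array.

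**Figure D2:**
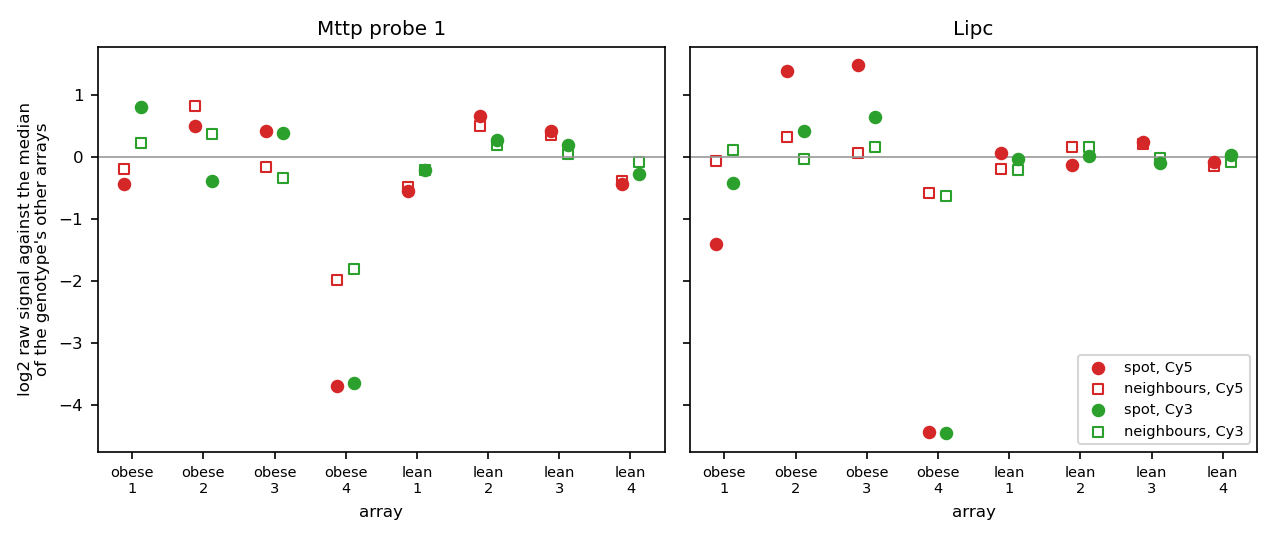
Raw signal of the Mttp probe 1 and Lipc spots (filled circles) and the median of their neighbours on the array (open squares), as log2 difference from the median of the other arrays of the genotype (vertical axis), for each array (horizontal axis) in Cy5 (red) and Cy3 (green). On obese replicate 4 the Mttp spot lies at -3.69 in Cy5 and -3.63 in Cy3 and its neighbours at -1.98 and -1.80, and the Lipc spot lies at -4.43 and -4.45.

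For the TU response, Mttp probe 1 had ratios of -0.44, 0.24, 0.19 and 0.04 on obese arrays, against -0.43, -0.02, -0.45 and -0.20 on lean arrays. Probe 2 had ratios of -0.54, -1.13, -0.004 and -0.13 on obese arrays, against -0.21, -0.04, -0.07 and -0.06 on lean arrays. Probe 2 was below 0 on all 8 arrays, whereas probe 1 was below 0 on all 4 lean arrays and 1 obese array. None was called: the limma adjusted p was 0.983 and 0.366 for probes 1 and 2 in obese rats and 0.315 and 0.840 in lean rats. The obese minus lean difference was 0.28 (95% interval -0.09 to 0.65) for probe 1 and -0.36 (-0.86 to 0.14) for probe 2.

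Of the genes for remodelling in plasma, Lipc encodes hepatic lipase, which hydrolyses triglyceride and phospholipid of remnant and high density particles at the liver surface. The non-uniform spot on obese replicate 4 was left out, so 3 obese arrays remained. Lipc levels under TU were 11.72, 12.13 and 12.38 on obese arrays 1 to 3, against 12.79, 12.25, 12.36 and 12.59 on lean arrays, and under vehicle 12.60, 12.78 and 12.63, against 12.85, 12.54, 12.48 and 12.67. The genotypes overlapped in each treatment. The difference was -0.42 ± 0.19 under TU (limma adjusted p 0.167) and 0.03 ± 0.10 under vehicle (limma adjusted p 0.865), and keeping the dim spot made it -1.28 and -0.96, again with no call. Its TU over vehicle ratio was -0.88, -0.64 and -0.25 on obese arrays, against -0.07, -0.29, -0.12 and -0.08 on lean arrays. All 7 ratios were below 0, and the lean ratio of -0.29 lay beyond the obese ratio of -0.25. The mean was -0.59 ± 0.11 in obese rats (limma adjusted p 0.226) and -0.14 ± 0.10 in lean rats (limma adjusted p 0.558). The obese minus lean difference of -0.45 ± 0.15 was not called (limma adjusted p 0.641), and with median centring it was 0.43.

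Lcat encodes the plasma enzyme that esterifies cholesterol on high density particles. Its levels under TU were 15.31, 15.07, 15.30 and 15.46 on obese arrays, against 14.88, 15.09, 15.19 and 14.82 on lean arrays, and under vehicle 15.60, 15.14, 15.10 and 15.56, against 15.00, 14.88, 14.75 and 14.83. The genotypes overlapped under TU and not under vehicle. Lcat rose in obese livers under vehicle by 1.40-fold (95% interval 1.13 to 1.73), with a log2 difference of 0.48 ± 0.13 and an adjusted p of 0.0484 by limma, close to the threshold. The call was lost without any 1 of the 4 lean arrays, without obese replicate 1 and without obese replicate 4, with adjusted p between 0.0648 and 0.132, and with the scanner's processed signals the difference was 0.28 (limma adjusted p 0.372). Under TU the difference was 0.29 ± 0.11 (limma adjusted p 0.103). The TU over vehicle ratio ranged from -0.29 to 0.21 in obese rats and from -0.12 to 0.44 in lean rats, and the difference between genotypes was -0.19 (95% interval -0.52 to 0.13).

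Pltp encodes phospholipid transfer protein, which moves surface lipid between particles. Its TU over vehicle ratio was -0.08, -1.37, -0.11 and -0.14 on obese arrays, against -0.05, -0.23, -0.42 and -0.48 on lean arrays. All 8 ratios were below 0, and 1 obese array lay far below the others. The mean was -0.42 ± 0.20 in obese rats (limma adjusted p 0.401) and -0.29 ± 0.20 in lean rats (limma adjusted p 0.544). Without obese replicate 2 the obese mean was -0.11, and the lean response, unchanged at -0.29, was then called (limma adjusted p 0.0495) because the spread is estimated over all arrays; with median centring the lean mean was -0.77 and was also called (limma adjusted p 0.0313). The log2 ratios of all probes on obese replicate 2 had an SD of 0.46, against 0.11 to 0.25 on the other 7 arrays. Pltp levels ranged from 8.60 to 9.08 on obese arrays and 8.83 to 9.22 on lean arrays under TU, and from 8.68 to 10.35 and 8.92 to 9.45 under vehicle. Between genotypes the difference was -0.10 (95% interval -0.40 to 0.20) under TU and 0.03 (-0.77 to 0.84) under vehicle.

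Lipa encodes lysosomal acid lipase, which hydrolyses cholesteryl esters and triglyceride taken up with lipoproteins. Its levels ranged from 11.57 to 12.51 on obese arrays and from 11.63 to 12.31 on lean arrays under TU, and from 12.16 to 12.56 and 11.89 to 12.17 under vehicle. The genotypes overlapped in each treatment. The difference was 0.09 ± 0.24 under TU (limma adjusted p 0.822) and 0.27 ± 0.10 under vehicle (limma adjusted p 0.120). The TU ratio ran from -0.82 to 0.18 in obese rats and from -0.46 to 0.21 in lean rats, with signs mixed in each genotype.

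**Figure D3:**
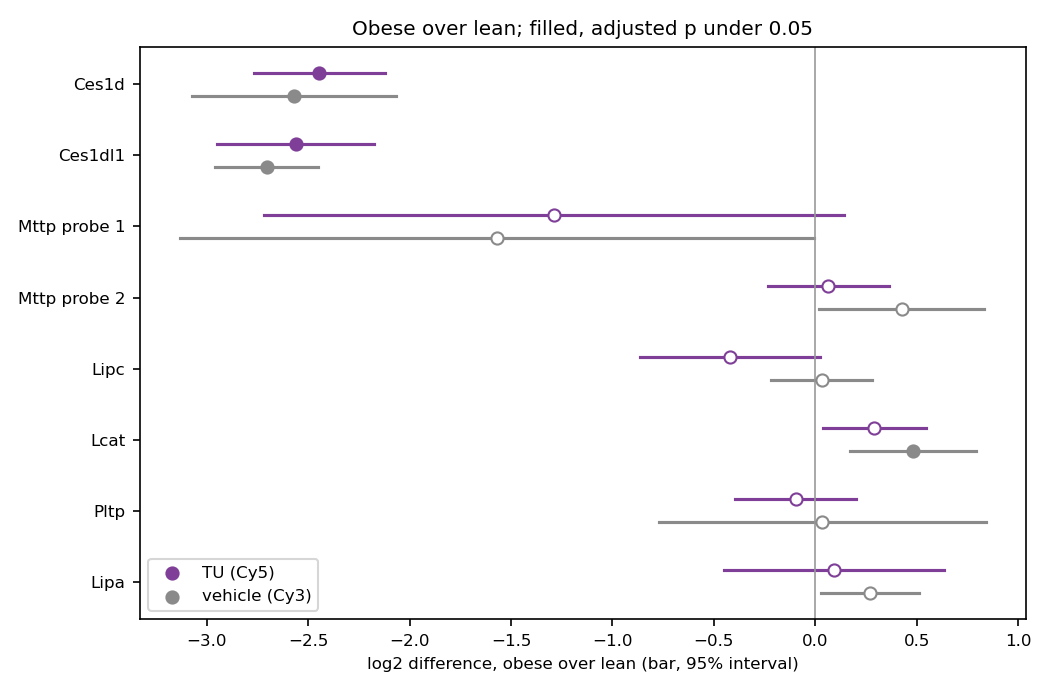
Log2 difference of obese over lean livers (horizontal axis) for each member probe (rows), under TU (purple) and vehicle (grey), with 95% intervals from limma; filled points have an adjusted p under 0.05. Ces1d and Ces1dl1 lie between -2.45 and -2.71, and the 2 Mttp probes lie on opposite sides of 0, with probe 2 at only 0.06 under TU.

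**Figure D4:**
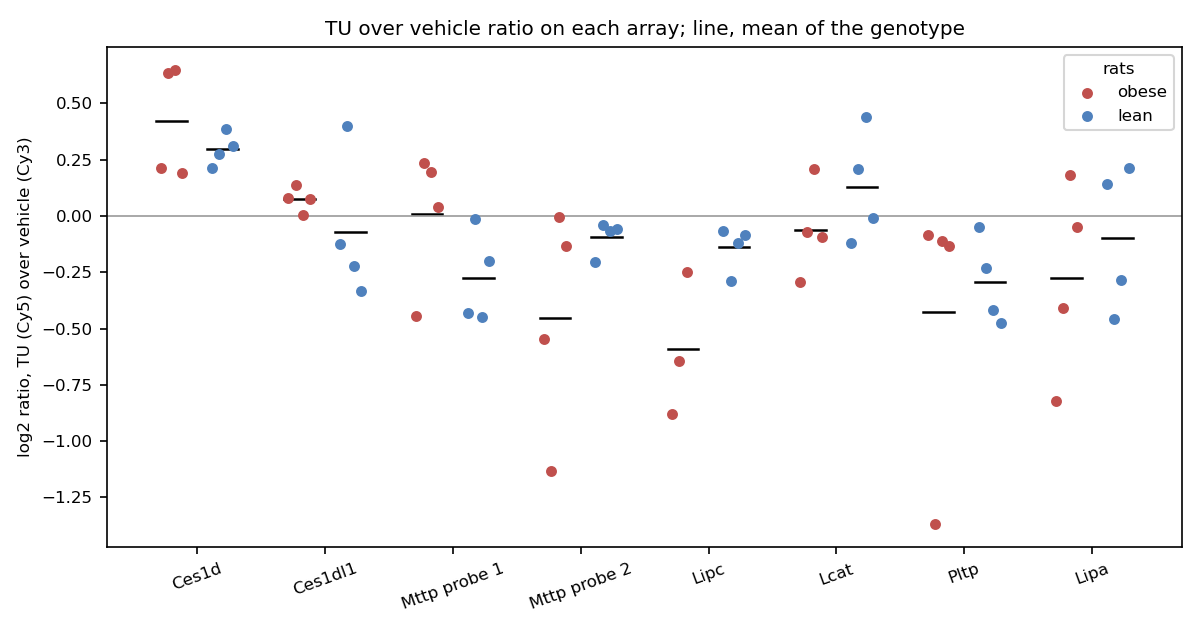
Log2 ratio of TU (Cy5) over vehicle (Cy3) on each array (points) for the 8 member probes, obese (red) left of lean (blue); lines are genotype means. Ces1d lies above 0 and Pltp, Lipc and Mttp probe 2 lie below 0 on all arrays with a value, and no member was called in either genotype.

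The other genes of lipoprotein assembly, secretion, remodelling and uptake were taken from a list of 69, chosen with earlier results of these data known, of which 57 had a probe and 55 had a probe that passed the filter (Vldlr and Lipg had none). Each is given by its brightest passing probe. None was called for the TU response in obese rats, lean rats or the difference, and 19, 20 and 12 of the 55 (34.5%, 36.4% and 21.8%) had an unadjusted limma p under 0.05, where 12.7%, 15.0% and 7.62% of all tested probes did. Without 1 array 0 to 10 were called in lean rats, where 1 to 1188 of all probes were. Median centring gave 15 in lean rats, all lower, where 6276 of 26913 tested probes were called lower. No background correction gave 3 in lean and 1 in obese rats, where 326 and 23 of all tested probes were called. The brightest probe per gene gave 1 in lean rats. Under TU 15 (27.3%) were called higher and 7 (12.7%) lower in obese livers, against 12.1% and 8.55% of all tested probes, with a median log2 difference of 0.16 against 0.02 over all probes. Under vehicle 10 (18.2%) were called higher and 3 (5.45%) lower, against 8.19% and 7.08% of all tested probes, with a median of 0.27 against 0.02 over all probes.

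Other carboxylesterases on the list were also lower in obese livers. Ces1f fell by 2.004-fold under TU (log2 difference -1.003 ± 0.11, limma adjusted p 0.00114) and by 1.504-fold under vehicle (log2 difference -0.59 ± 0.12, limma adjusted p 0.0196). Ces1e fell by 1.88-fold under TU (log2 -0.91 ± 0.16, limma adjusted p 0.00645) and by 1.40-fold under vehicle (log2 -0.48 ± 0.08, limma adjusted p 0.0104). Ces1c, a secreted esterase, had levels under TU of 14.64, 14.61, 15.09 and 10.39 on obese arrays, against 16.17 to 16.30 on lean arrays, and was again far lower on obese replicate 4. Its difference with all arrays was -2.56 ± 0.96 under TU (limma adjusted p 0.0988) and -2.54 ± 0.90 under vehicle (limma adjusted p 0.0978). Without obese replicate 4 it was -1.46 (limma adjusted p 0.00129) and -1.54 (limma adjusted p 0.00672) and was called, and its second probe was called with all arrays, at -2.46 (limma adjusted p 0.00704) and -2.45 (limma adjusted p 0.0167). Aadac, an endoplasmic reticulum esterase, had log2 differences of -0.58 under TU (limma adjusted p 0.0318) and -0.94 under vehicle (limma adjusted p 0.0304), with 3 obese arrays because the spot on replicate 4 was left out as non-uniform. The Ces1 genes are related in sequence, and hybridisation across them was not tested.

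Genes higher in obese livers in both treatments included Dgat2 and Tm6sf2. Dgat2, which makes triglyceride, rose by 2.31-fold under TU (log2 1.21 ± 0.16, limma adjusted p 0.00225) and 2.51-fold under vehicle (log2 1.33 ± 0.31, limma adjusted p 0.0298). Another Dgat2 probe was called at 1.38 under TU (limma adjusted p 9.75e-05) and 1.65 under vehicle (limma adjusted p 0.0310). A further one was called in neither, at 1.16 ± 0.77 (limma adjusted p 0.333) and 1.38 ± 1.07 (limma adjusted p 0.421). Tm6sf2, which acts in VLDL lipidation, rose by 1.85-fold under TU (limma adjusted p 0.0172) and 2.30-fold under vehicle (limma adjusted p 0.0381). Sdc1, a proteoglycan that binds remnant particles, rose by 2.35-fold under TU (limma adjusted p 0.00127) and 1.86-fold under vehicle (limma adjusted p 0.0254). Sec23a and Sar1a of the coat that carries cargo out of the endoplasmic reticulum, Abca1 and Apoa1 of high density particle formation, and Pon1, a high density particle enzyme, were also called higher in both, with log2 differences of 0.35 to 0.74 under TU and 0.41 to 0.81 under vehicle. The second Sec23a probe gave 0.24 under TU and 0.13 under vehicle, with no call.

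Called under vehicle alone were Arfrp1 at 0.42 and Apob at 0.70, and Apob under TU was at 0.91 with a limma adjusted p of 0.05003. Apob, the core protein of VLDL, had 4 further probes, 3 of which were called higher under TU and 2 under vehicle. Called higher under TU alone were, among others, Sec24a, Scarb1, Pcsk6, Lsr, Lrp2 and Pcsk7, with log2 differences of 0.35 to 0.91. Other probes of Sec24a and Scarb1 were called higher under vehicle as well (limma adjusted p 0.00393 to 0.0425). Called lower under TU alone were Saa4, Lrpap1, Cidea and Apoc3, with log2 differences of -0.50 to -0.37. The second Saa4 probe gave 0.24 with no call, and the second Apoc3 probe gave -0.60, also with no call (limma adjusted p 0.0664). Whether a gene's difference itself differed between treatments is the obese minus lean TU response, in which no listed gene was called.

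Many of these calls rest on few arrays. Of the 22 calls under TU, 13 held without any 1 array, and the calls lost numbered 5, 4 and 4 without obese replicates 2, 3 and 4 and 7, 6, 5 and 8 without lean replicates 1 to 4. The genes concerned included Saa4, Lrpap1, Lsr, Cidea, Apoa1, Apoc3, Tm6sf2 and Aadac, whose largest adjusted p in these fits was 0.0516 to 0.0897. Of the 13 calls under vehicle, 5 held without any 1 array (Sec23a, Arfrp1, Ces1e, Abca1 and Pon1). The calls lost numbered 2, 1, 1 and 4 without obese replicates 1 to 4 and 6, 8, 7 and 6 without lean replicates 1 to 4. For Dgat2, Tm6sf2, Sdc1, Apob, Apoa1, Sar1a, Ces1f and Aadac the largest limma adjusted p was 0.0508 to 0.104. The scanner's processed signals lost Aadac, Apoa1, Lsr, Pcsk6, Pcsk7, Pon1, Sar1a and Scarb1 under TU (limma adjusted p 0.0661 to 0.932). Under vehicle they lost Aadac, Abca1, Apoa1, Apob, Arfrp1, Pon1, Sar1a and Sdc1 (limma adjusted p 0.0866 to 0.752), 3 of them among the 5 that held. With the replicate number as a block, Apoa1, Apoc3, Cidea, Pon1 and Saa4 were among those not called under TU (limma adjusted p 0.0514 to 0.0879).

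Although not called, the listed genes with the largest TU over vehicle log2 ratios in obese rats were Dgat2 at -0.62, Tm6sf2 at -0.55 and Apoc1 at 0.50, with limma adjusted p of 0.376, 0.357 and 0.130. On obese replicate 2 the ratio was -1.59 for Dgat2 and -1.28 for Tm6sf2, and with 1 array left out the means reached -0.30 and -0.31. In lean rats the largest ratios were those of Angptl4, an inhibitor of lipoprotein lipase, at 0.999, Apoc3 at 0.83 and Apoa4 at 0.63, with limma adjusted p of 0.186, 0.0811 and 0.0724. Apoc3 and Apoa4 were each called in lean rats in 1 fit that left out 1 array (limma adjusted p 0.00526 and 0.0251). The largest obese minus lean differences were those of Angptl4 at -1.28, Apoc3 at -0.52 and Apoe at -0.52, with limma adjusted p of 0.641, 0.652 and 0.698. Those of Apoc3 and Apoe changed sign, at 0.49 and 0.43 with median centring and 0.54 and 0.70 with ratios scaled between arrays, and that of Angptl4 ran from -2.75 to -0.56 over the settings. Angptl4 ratios were 0.44, -0.76, -0.89 and 0.10 on obese arrays, against 1.66, 1.65, 0.65 and 0.04 on lean arrays, so the genotypes overlapped. Those of Apoe overlapped too, at -0.17, -0.86, 0.60 and 0.56 against 0.32, 0.59, 0.82 and 0.50. The Apoe level on obese replicate 1 was 12.20 under TU and 12.37 under vehicle, against 17.41 to 17.96 and 17.13 to 18.27 on the other obese arrays. For the second Apoc3 probe the obese minus lean difference was -0.78 (limma adjusted p 0.641).

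**Figure D5:**
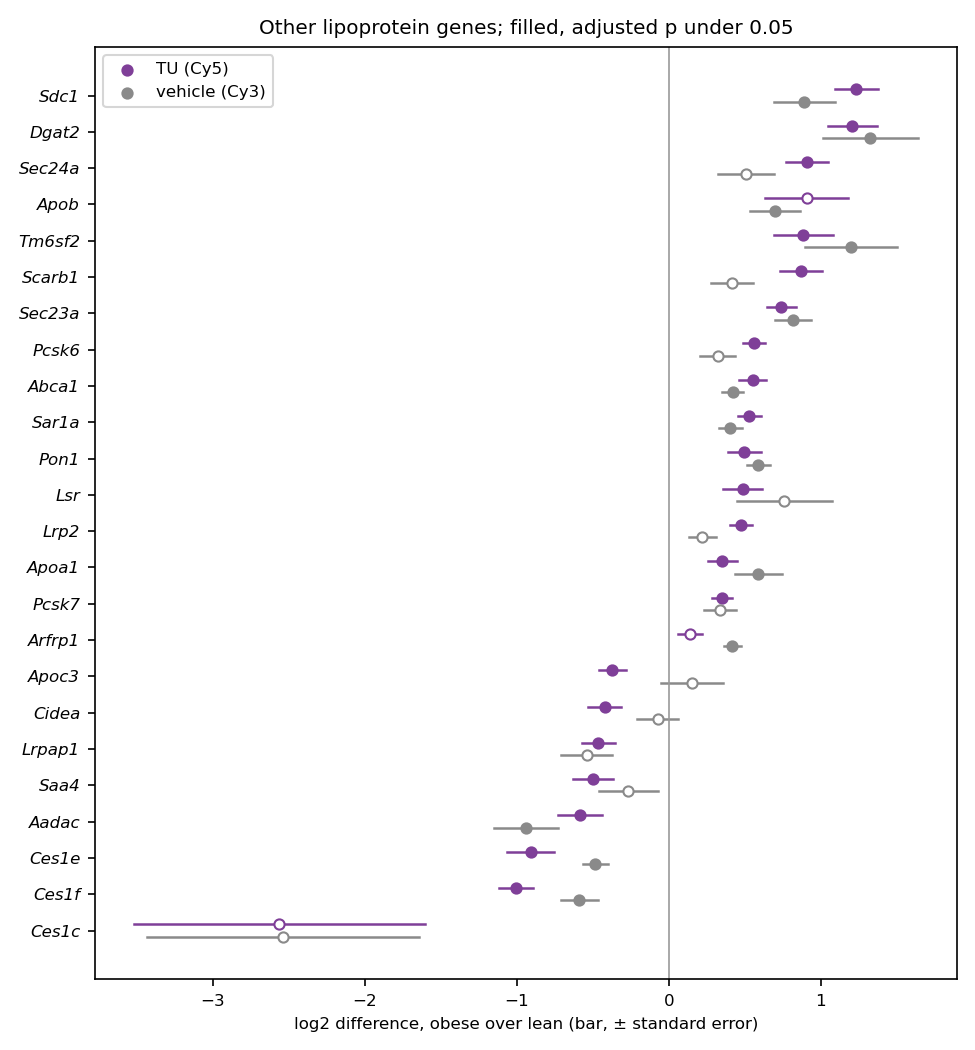
Log2 difference of obese over lean livers (horizontal axis, bars ± SE) for the named lipoprotein genes called in either treatment and for Ces1c (rows), under TU (purple) and vehicle (grey); filled points have an adjusted p under 0.05. Ces1f, Ces1e and Aadac lie left of 0 in both treatments, and Ces1c lies at -2.56 and -2.54 with wide bars.

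Across the arrays, the other named genes whose TU over vehicle ratio ran most like that of a member were as follows, with Pearson's r over 8 arrays (7 for Lipc) given as a description. They were Enpep (0.924) and Lrba (0.902) for Ces1d, and Spink1l (0.967) and Or52e8b (0.954) for Ces1dl1. They were Cyp3a9 (0.955) and Zbtb38 (0.954) for Mttp probe 1, and Spag7 (0.981) and Odc1 (0.973) for Lipc. For Lcat they were Chat (0.950) and Arl6ip4 (0.934), for Lipa Pja2 (0.976) and Adap2 (0.973), and for Pltp Ube2g2 (0.994) and Csf1r (0.992). Without obese replicate 2 the values for Pltp were 0.962 and 0.938. These ratios share arrays, dyes and normalization, and each pair was the closest among 9828 named genes (9881 for Lipc).

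The livers carried hepatocyte RNA throughout, with 9 of 9 hepatocyte markers measured. For each cell type, marker intensities were summed and the log2 then taken, so the brightest markers weigh most. This summed level of the hepatocyte markers was 19.37 to 19.82 in obese and 19.84 to 20.10 in lean rats under TU, and 19.40 to 19.87 and 19.38 to 19.60 under vehicle. A spot left out as non-uniform added nothing to the sum of its array. Tf and Hpd lacked values on obese arrays, so the obese and lean sums do not all cover the same markers. How far this lowers the obese sums was not tested. In obese livers under TU Cps1 was called higher and Cyp2c11 lower, and under vehicle Alb and Cps1 were called higher. The Tf difference of -0.57 under TU rests on 1 obese array with a value, as its standard errors show, and is not counted as a call. All 9 Kupffer cell and macrophage markers were measured, with summed levels of 14.33 to 14.58 in obese and 14.73 to 14.86 in lean rats under TU and 14.53 to 14.97 and 14.68 to 15.14 under vehicle. Under TU Vsig4 was called higher and Clec4f lower in obese livers, and none was called under vehicle. All 6 stellate cell markers were measured, with summed levels of 13.50 to 14.71 in obese and 13.03 to 13.13 in lean rats under TU and 13.40 to 13.97 and 13.26 to 13.54 under vehicle. In both treatments Col3a1 was called higher and Lrat lower in obese livers, and Col1a1 was called higher under TU. Of 5 lymphocyte markers 2 were measured, with summed levels of 8.67 to 9.12 in obese and 9.32 to 9.62 in lean rats under TU and 8.45 to 9.04 and 9.31 to 9.44 under vehicle, so obese arrays lay below lean arrays in both. Of these Cd3d, a chain of the T cell receptor complex, was called lower in obese livers, by a log2 difference of -0.91 under TU (limma adjusted p 0.00245) and -0.82 under vehicle (limma adjusted p 0.00732). Of 6 sinusoidal endothelium markers 4 were measured, with summed levels of 13.26 to 13.60 in obese and 13.28 to 13.52 in lean rats under TU and 13.04 to 13.72 and 13.49 to 13.69 under vehicle. Lyve1 at -0.46 (limma adjusted p 0.0174) and Pecam1 at -0.18 (limma adjusted p 0.0401) were called lower under TU. Of 4 erythroid markers 3 were measured, with summed levels of 12.47 to 13.09 in obese and 12.46 to 13.59 in lean rats under TU and 12.37 to 14.82 and 11.38 to 12.75 under vehicle, and Slc4a1 was called higher under vehicle, at 0.63 (limma adjusted p 0.0458). The adipocyte markers Adipoq and Lep, the lymphocyte marker Cd3e, the neutrophil marker Cxcr2 and the pancreas markers Prss1 and Cpa1 lay well above background on 0 or 1 of 8 arrays. The neutrophil markers S100a8 and S100a9 and the pancreas markers Amy2a3 and Ctrb1 did so on all 8 arrays, with no call between genotypes. In whole liver, fewer cells of a type and less RNA per cell cannot be told apart, and the part of cell makeup in the member results was not tested.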

How the data were processed

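Agilent Feature Extraction 10.7.3.1 wrote the array files, per the file headers. Their intensity columns hold the median signal and local background of each spot in each dye, and the deposited processed intensities had been background-subtracted and dye-normalized, per the file headers. The authors' deposited series matrix holds log2 ratios of TU over vehicle: scale and direction were found from a slope of 3.33 to 3.38 on the scanner's deposited log10 ratio, while their normalization stays unknown. They correlated with the processed-signal ratio at r of 0.998 to 1.000 and with the ratios used here at 0.237 to 0.703, and their column medians were 0.0792, 0.139, 0.0632 and 0.0459 for obese replicates 1 to 4 and 0.0855, 0.0666, 0.0745 and 0.0662 for lean replicates 1 to 4. Every column matched a sample (0 did not).

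Each array held 41012 distinct probes. Per array, the median Cy5 signal was 56 to 68 over a background of 41 to 45 and the median Cy3 signal 39.5 to 56 over 19 to 25, and the number of arrays limits the precision. Gene names came from the newer of 2 annotation versions for 16815 probes and from the older for 195 more, through RefSeq (GRCr8), and 24002 probes stayed unnamed.

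Signals were corrected with normexp (offset 50) and loess within arrays in limma 3.58.1 (R 4.3.3), with Aquantile between arrays for single channels. The files hold median signals, not the mean. Control and non-uniform spots were left out. A probe passed when well above background in either dye on at least 4 of 8 arrays, each probe was a feature, and lmFit and eBayes over all 8 arrays gave p-values adjusted by Benjamini-Hochberg over 26911 to 26979 probes. Promoters were aligned with Biopython 1.88. The fits were tested on simulated data with independent normal noise, which holds none of the dim areas seen on these arrays. Of 100 probes changed by 1 log2 unit, 98 were called for the TU response in obese rats and 75 for obese over lean under vehicle. For 2 log2 units these numbers were 100 and 93. Among unchanged probes 18 and 16 were called.

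The genes, gene lists and tests were chosen with earlier results of these data known. A listed gene and a cell type marker counted in the totals are not reported here. Otherwise the text names every probe of the members, the listed genes past the threshold in any comparison, the 3 listed genes with the largest difference per comparison and the 2 genes most like each member. Same-numbered obese and lean arrays had correlated deviations in Cy5 (r 0.612, 0.164, 0.435 and 0.247 for replicates 1 to 4). The labels do not say whether same-numbered arrays are linked, and the source of these correlations was not tested. In Cy3 (0.614, 0.067, 0.401 and -0.056) and in the log ratios (0.059, -0.102, 0.158 and -0.012) not every pair passed 0.1.

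Alternatives were the scanner's processed signals, no background correction, no filter, the brightest probe per gene, median centring, ratios scaled between arrays, the authors' log ratios, quantile normalization, a replicate block, leaving out each array and, chosen after seeing the data, keeping non-uniform spots.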

Additional observations from a re-analysis of the deposited data

Results flagged for a closer look

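Of 45 groups of 4 arrays examined, 4 held an array far from the others (Dixon's test at the 95% level), and chance gives about 1 in 20. The Pltp ratio of TU over vehicle was -1.37 on obese replicate 2, and the nearest other obese array was at -0.14. The level of Mttp probe 1 under TU was 7.73 on obese replicate 4, and the nearest other obese array was at 10.40. The level of Pltp under TU was 9.22 on lean replicate 2, and the nearest other lean array was at 8.87. The ratio of Mttp probe 2 was -0.21 on lean replicate 1, and the nearest other lean array was at -0.07.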

How the results depend on the processing

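Ces1d and Ces1dl1 stayed lower in obese livers, with a call, under each alternative and without each array. Without 1 array, members called in obese over lean numbered 2 to 3 under TU and 2 to 4 under vehicle, against 2 and 3 with all arrays. For the TU response they numbered 0 to 0 in obese rats and in the difference and 0 to 1 in lean rats. With median centring 1 member (Pltp) was called in lean rats.

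Counts over all probes moved more. For the TU response in obese rats 3 probes were called, and 0 to 2 without 1 array, 209 with processed signals, 23 with no background correction, 0 after median centring, 0 after scaling ratios between arrays, 203 with the authors' log ratios, 0 with the replicate block and 6 with non-uniform spots kept. In lean rats the 48 calls became 1 to 1188 without 1 array (the most without obese replicate 2), and 276, 326, 6596, 0, 278 and 23 under the first 6 of those settings in order; the 6596 were 320 higher and 6276 lower, as median centring put the median ratio at -0.21. The 1 call in the difference became 0 to 3 without 1 array, and 2, 0, 0, 0, 2 and 0 in that order. Under TU 5558 probes were called between genotypes, 3567 to 8578 without 1 array and 5258 with the replicate block, which changed no member call there. Under vehicle 4109 were called, 1737 to 5728 without 1 array and 1694 with the replicate block. In that block fit Lcat was not called (limma adjusted p 0.0599). Nor were 8 of 13 other lipoprotein genes: Aadac, Apoa1, Apob, Ces1f, Dgat2, Sar1a, Sdc1 and Tm6sf2 (limma adjusted p 0.0548 to 0.103). Processed signals gave 2802 higher and 3230 lower under vehicle, against 2203 and 1906.

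Signs turned for values that were not called, and for Apoa1 under TU, which was. With median centring the obese TU response was 0.41 for Lcat, the lean one -0.16 for Ces1d and -0.34 for Lcat, and the difference 0.43 for Lipc, 0.61 for Lipa, 0.46 for Pltp, 0.74 for Lcat, 0.43 for Apoe and 0.49 for Apoc3. With ratios scaled between arrays the obese response was 0.21 for Lipa and 0.38 for Lcat, and the difference 0.36 for Lipa, 0.15 for Lcat, 0.70 for Apoe and 0.54 for Apoc3. With processed signals Ces1dl1 was at 0.11 for the lean response (0.11 with the authors' log ratios), and obese over lean was -0.077 for Lipa and -0.036 for Apoa1 under TU and -0.084 for Pltp under vehicle. With no background correction Mttp probe 1 was at -0.013 for the obese response, and with non-uniform spots kept Lipc was at -0.96 under vehicle. Without 1 array, the obese response ran from -0.15 to 0.015 for Lcat and -0.070 to 0.156 for Mttp probe 1, the lean one from -0.20 to 0.024 for Lipa and -0.23 to 0.019 for Ces1dl1, and the difference from -0.33 to 0.0042 for Lipa and -0.24 to 0.18 for Pltp. Obese over lean ran from -0.0070 to 0.19 for Mttp probe 2 and -0.059 to 0.25 for Lipa under TU, and from -0.022 to 0.106 for Lipc and -0.32 to 0.23 for Pltp under vehicle. Lcat under TU was called with quantile normalization alone (limma adjusted p 0.0376), and its call under vehicle was lost with 6 of 7 alternatives. Of the calls of other lipoprotein genes, 8 of 22 under TU and 8 of 13 under vehicle were lost with processed signals; the cause was not tested. Ces1dl1 in obese rats lay near background, which limits its size.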
